A study of Mus musculus with 18 samples.

Results

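The comparison described here is that of SKG with WT in thymic NKT17 cells, taken across all genes of the count table. Its members are the 3 SKG NKT17 and the 3 WT NKT17 libraries, chosen by their labels, which are 6 of the 18 RNA-seq libraries of the series. The other 12 libraries are NKT1 and NKT2 cells of both genotypes and helped to estimate the spread between replicates. NKT17 cells had been sorted from the thymus as cells that bind a CD1d tetramer loaded with a glycolipid, lack CD49a, are high for ICOS and carry Sdc-1, so the genes of these sort markers (Itga1, Icos, Sdc1) are no findings here. WT and SKG mice came from a cross of BALB/cJ with SKG, both on the BALB/c background. SKG mice carry a spontaneous point mutation of Zap70 that lies in its second SH2 domain and lowers its function, and it is present in every cell of the animal. The labels name no treatment. The age and sex of the mice used for RNA-seq, and whether animals were pooled, are not given in the sources used here, so p-values measure the spread between these samples.

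Invariant NKT cells are T cells with a semi-invariant T cell receptor (TCR) that sees lipids on CD1d. They mature in the thymus into NKT1 cells, which depend on T-bet and make IFN-γ, NKT2 cells, which carry high PLZF and make IL-4, and NKT17 cells, which make IL-17 and respond to IL-23. Zap70 binds the phosphorylated chains of the TCR complex through its SH2 domains and passes the signal to Lat and Lcp2, which lead to calcium entry, Ras and protein kinase C. Genes such as Cd5, Nr4a1, Egr2, Id3 and Pdcd1 are widely used as readouts of the strength of that signal in T cells.

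The libraries held 5054560 to 7055288 counts in NKT17. To be called, a gene had to change by at least 1.5-fold and have an adjusted p (Benjamini-Hochberg) below 0.1 in the quasi-likelihood test of edgeR. Levels are given as raw counts in each library, always in the order replicate 1, 2 and 3, and as CPM, which is the count relative to all counts of a library after scaling for library composition. They are not divided by gene length, so levels of different genes are not compared. Of 11118 genes tested, 931 were called (8.37%), of which 426 were higher in SKG (3.83%) and the rest were lower (4.54%). In 2990 genes (26.9%) the 3 SKG libraries lay wholly above or wholly below the 3 WT libraries, and 883 of the 931 called genes were among these. The first principal component of the 6 libraries held 48.0% of the variance, with WT between -39.9 and -30.5 and SKG between 32.1 and 36.9. Changes of at least 2-fold were made by 239 genes called higher and 323 called lower. The median log2 fold change over all genes was 0.0045, so changes are read against a centre near 0.

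**Figure D1:**
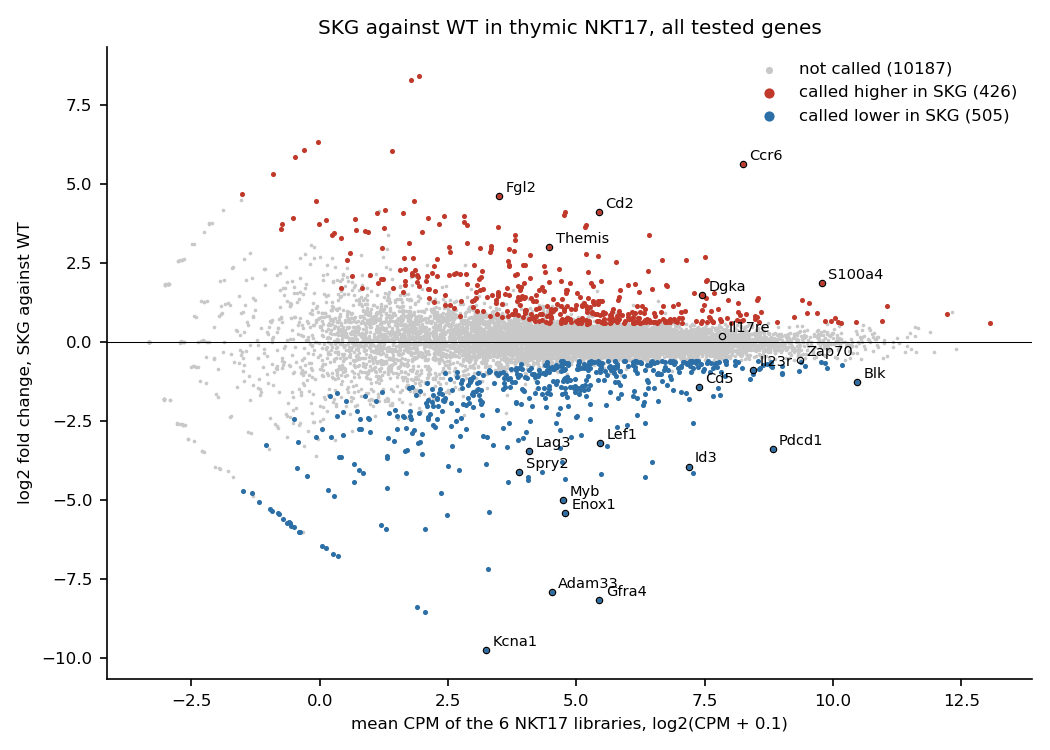
Log2 fold change of SKG against WT in NKT17 (y axis) against the mean level of the 6 libraries as log2(CPM + 0.1) (x axis), 1 point a gene. The 426 genes called higher are red, those called lower are blue, and the falls of Pdcd1 and Id3 and the rise of Ccr6 stand among genes of high level.

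The libraries carried the markers of their label. Il23r, which encodes the receptor chain for IL-23, had a mean of 454 CPM in WT NKT17 and 245 CPM in SKG NKT17, against 0.0804 CPM in WT NKT1 and 0.248 CPM in WT NKT2. Il17re, a chain of the receptor for IL-17C, had 215 and 245 CPM in WT and SKG NKT17 against 0.899 CPM in WT NKT1 and 0.244 CPM in WT NKT2. Of the defining markers of other cells, Pax5, Rag1, Rag2, Dntt, Csf1r and Foxn1 had no count in any of the 6 libraries, which allows up to 3 counts in each. Other genes of those lists were present. Of 14 listed B and plasma cell markers, 11 had an entry in the counts. These summed to 343 to 522 CPM in WT and 310 to 400 CPM in SKG, most of it Xbp1, a factor of the secretory pathway (416 and 308 CPM). Cd79b, a chain of the B cell receptor complex, rose from 52, 57 and 55 to 277, 141 and 213 counts (log2 fold change 1.91 ± 0.40, edgeR adjusted p = 0.00264). It was the only called gene of the 3 tested in that list, and its source was not tested. Of 14 listed myeloid and dendritic markers, 13 had an entry. These summed to 227 to 319 CPM in WT and 269 to 312 CPM in SKG, most of it Cst3, a protease inhibitor (266 and 294 CPM). Of 14 listed γδ T cell markers only 4 had an entry, so most of that list could not be checked. These 4 summed to 3647 to 4328 CPM in WT and 1949 to 2409 CPM in SKG. Among the 4, Blk and Sox13, which are also NKT17 markers, fell. The summed level of 8 NKT1 markers was 284 to 327 CPM in WT and 174 to 262 CPM in SKG NKT17, against 9170 to 10449 CPM in WT NKT1. Most of that sum in NKT17 was Il2rb, a chain of the IL-2 and IL-15 receptors, which fell from 298 ± 22.0 to 182 ± 25.2 CPM, while Nkg7 and Klrd1 of the same list rose from low levels, and the median log2 fold change of the 8 genes was 0.64. Of the double-positive thymocyte list, 6 of 12 genes were at 0 in SKG and 5 in WT, and the sum was 1033 to 1115 CPM in SKG against 1167 to 1234 CPM in WT. The 10 markers of conventional naive T cells and regulatory T cells summed to 455 to 555 CPM in WT and 556 to 636 CPM in SKG. Of 8 tested, 7 means lay above WT, S1pr1 and Ccr7 were called higher and Lef1 lower. These genes are described below among NKT17 changes, and whether other T cells carried them was not tested. Xist, expressed from the inactive X chromosome, had 1232, 0 and 0 counts in WT and 4, 1719 and 4 counts in SKG, so each genotype held 1 library of mainly Xist-positive cells. Ddx3y, a gene of the Y chromosome, had 0, 519 and 1009 counts in WT and 653, 1 and 519 in SKG, the reverse pattern. By these genes WT replicate 1 and SKG replicate 2 were mainly female cells and the others male. In such bulk samples fewer cells of a type and less RNA per cell cannot be told apart.

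Zap70 itself (chromosome 1, 36818695 to 36839663 on NCBIM37, plus strand) was transcribed in both genotypes, as the point mutation leaves the gene in place. Its counts were 4101, 4897 and 5217 in WT and 3987, 2595 and 3003 in SKG. On the CPM scale all 3 SKG libraries lay below the WT libraries, at a mean of 527 ± 64.3 against 789 ± 68.5 (SD, n = 3 each). The log2 fold change was -0.58 ± 0.12 (SE) with an edgeR adjusted p of 0.00174, just short of the 1.5-fold minimum, so Zap70 was not called. The minimum was passed under 6 of 15 alternatives, at a log2 fold change between -0.69 and -0.48 over all 15, and without a minimum Zap70 was called. A count of transcripts does not show the mutation or the amount of protein.

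Among called genes with non-overlapping libraries and at least 50 counts on average in SKG, the largest rise was that of Ccr6, the receptor for CCL20 that guides IL-17-producing lymphocytes to epithelia. Its counts were 94, 21 and 103 in WT and 4188, 3544 and 3013 in SKG. No WT library came near any SKG library, and the mean level went from 12.0 ± 7.57 to 592 ± 26.4 CPM (SD, n = 3 each), which is 5.62 ± 0.47 (SE) on the log2 scale (edgeR adjusted p = 5.32e-06). In NKT1 the mean was 0.201 CPM or less in both genotypes, and in NKT2 1.09 CPM or less, but with so few counts there the differences of the effects were not called (adjusted p = 0.777 and 0.637 in edgeR). The gene lies on the plus strand of chromosome 17 at 8429077 to 8449992 (NCBIM37, protein coding). RefSeq gives 2 start sites for it on GRCm38.p6. The 300 bases around the upstream start (250 before to 50 after it, chr17:8235793-8236092, plus strand) are shown because this rise was the largest by the rule for named genes. The capitals mark the only match on either strand to AGGTCA, a half-site of nuclear receptors, which is read here from the opposite strand and starts at position -44.
Ccr6: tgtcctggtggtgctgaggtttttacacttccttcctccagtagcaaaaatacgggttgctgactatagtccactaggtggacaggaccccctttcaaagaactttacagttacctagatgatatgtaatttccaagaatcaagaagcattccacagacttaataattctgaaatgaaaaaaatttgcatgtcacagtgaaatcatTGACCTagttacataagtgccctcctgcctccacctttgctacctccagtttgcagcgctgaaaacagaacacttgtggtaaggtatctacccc
The window at the other start held no match. Of all 27025 genes with a promoter window, 18.1% hold these letters, so the match is a description of this window.

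Of 18 genes of chemokine receptors and trafficking tested, 6 rose (Ccr6, Ccr8, S1pr1, Klf2, Ccr7 and Ccr10) and 0 fell, with a median log2 fold change of 0.98, and all 18 means lay above WT. Ccr8, a receptor for CCL1, had 19, 27 and 10 counts in WT and 263, 351 and 291 in SKG. The groups did not overlap, and the log2 fold change was 4.01 ± 0.33 (edgeR adjusted p = 2.41e-07). S1pr1, the sphingosine-1-phosphate receptor that T cells need to leave the thymus, had 1, 19 and 10 counts in WT and 173, 95 and 109 in SKG, again with no overlap and a log2 fold change of 3.62 ± 0.46. Klf2, the transcription factor that drives S1pr1, had 94, 39 and 164 counts in WT and 660, 580 and 453 in SKG. Its log2 fold change was 2.54 ± 0.84, with an edgeR adjusted p of 0.0909. The call of Klf2 was lost whichever single library was left out, and so was that of Ccr7, the receptor that guides cells to lymph nodes (log2 fold change 1.14 ± 0.35, adjusted p = 0.061 in edgeR). The highest adjusted p without 1 library or under another setting was 0.217 for Klf2 and 0.303 for Ccr7. Without SKG replicate 2, or without SKG replicate 3, 3 genes were called in place of 6. Cxcr6, a receptor highly expressed on iNKT cells, went from 2609 ± 491 to 3617 ± 63.0 CPM (adjusted p = 0.0136), with a log2 fold change of 0.47 that is under the fold-change minimum.

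**Figure D2:**
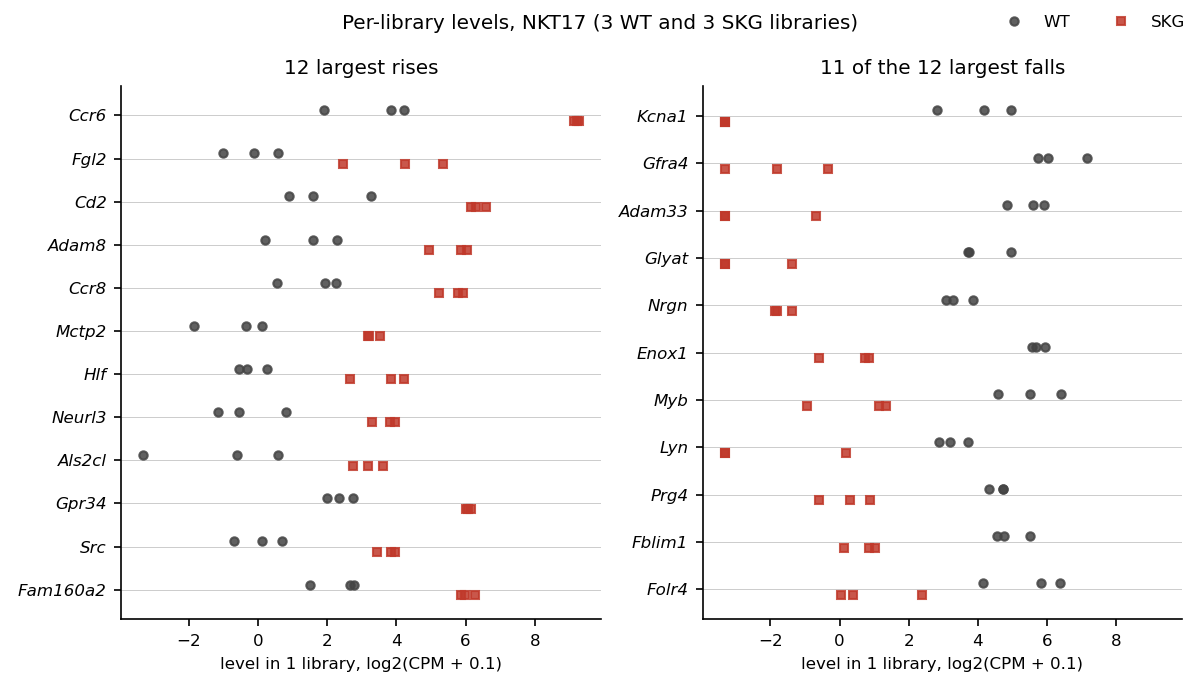
Level of the 12 largest rises (left) and 11 of the 12 largest falls (right) in each library as log2(CPM + 0.1) (x axis), with 3 WT libraries as grey circles and 3 SKG libraries as red squares. For each of these genes, chosen partly for this property, the genotypes do not overlap, and the leftmost position of the right panel holds libraries with 0 counts.

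The further genes among the 12 largest rises were Fgl2, Cd2, Adam8, Mctp2, Hlf, Neurl3, Als2cl, Gpr34, Src and Fam160a2, with log2 fold changes of 3.63 to 4.61. The choice required that their libraries do not overlap. Cd2, the adhesion receptor that binds CD48 and aids TCR signalling, had 9, 55 and 21 counts in WT and 673, 406 and 421 in SKG (log2 fold change 4.11 ± 0.40, edgeR adjusted p = 1.75e-05). Src, the prototype of the Src family of tyrosine kinases, had 5, 3 and 11 counts in WT and 100, 89 and 57 in SKG. Fgl2, which encodes fibroleukin, was the most uneven of them, with 2, 8 and 6 counts in WT against 286, 31 and 100 in SKG. The 3 SKG libraries of Fgl2 thus differed by more than those of the other genes named here. Fgl2, Cd2, Neurl3 and Mctp2 had higher means in WT NKT1 (933, 740, 174 and 55.8 CPM) than in SKG NKT17 (21.6, 81.7, 13.1 and 9.85 CPM). The other further genes had lower means there. In CPM, SKG replicate 1 was the highest SKG library for Fgl2 and Cd2, replicate 2 for Mctp2 and replicate 3 for Neurl3. Whether NKT1 cells carried these transcripts was not tested.

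Genes of the TCR complex changed in both directions. Cd247, the zeta chain whose phosphorylated motifs Zap70 binds, had 4475, 5521 and 5300 counts in WT and 2990, 2737 and 2352 in SKG. The SKG libraries lay wholly below WT, at 447 ± 27.5 against 854 ± 118 CPM (log2 fold change -0.93 ± 0.12, edgeR adjusted p = 2.17e-05). Exons of Cd247 overlap those of Pou2f1 on the opposite strand, and whether the counting used strand is not given in the sources used here. The same holds for Dgka, Grap, Themis, Cd160, Als2cl, Il4, Tap1, Cish, Adam8, Enox1, Lyn and Myb, each with a gene model on the other strand. Cd3e and Cd3g, other chains of the complex, were at 1786 ± 98.4 and 1672 ± 249 CPM in WT and 1974 ± 135 and 1864 ± 84.4 CPM in SKG, with adjusted p of 0.344 and 0.403. Cd5, a negative regulator set by TCR signal strength, fell from 244 ± 15.4 to 91.4 ± 11.0 CPM, with no overlap (log2 fold change -1.42 ± 0.18, edgeR adjusted p = 2.76e-05). Its relative Cd6 fell from 493 ± 28.5 to 299 ± 39.1 CPM. Of the 11 chains and coreceptors tested, 2 were called higher (Cd2 and Cd8b1) and 3 lower.

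Among proximal kinases and adaptors 5 of 29 were called higher and 0 lower, with a median of 0.17. Themis, an adaptor that sets the TCR threshold in thymocytes, had 15, 50 and 22 counts in WT and 217, 293 and 194 in SKG (log2 fold change 3.02 ± 0.35, edgeR adjusted p = 8.51e-06). Trat1, which stabilises the TCR complex at the surface, had 52, 31 and 32 counts in WT and 202, 255 and 159 in SKG (2.39 ± 0.26). The libraries did not overlap for either. The other genes called higher were Grap, Sit1 and Pag1, adaptors of which Sit1 and Pag1 recruit inhibitors of the signal, with log2 fold changes of 0.60 to 0.74; the call of Sit1 was lost under 5 of 15 alternatives and its log2 fold change was between 0.53 and 0.71 over all of them. Lck and Lcp2, which act next to Zap70, had log2 fold changes of -0.01 and 0.17, and neither passed the test. Lat had a log2 fold change of 0.30 (edgeR adjusted p = 0.0775), which is under the fold-change minimum. Of the 29 genes, 15 had an unadjusted p under 0.05 in edgeR, and 11 were called without a fold-change minimum.

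Among 19 ubiquitin ligases, phosphatases and kinases that restrain the TCR, 2 were called higher and 2 lower, with a median of -0.03. Dgka, the diacylglycerol kinase that limits Ras activation, had 402, 596 and 689 counts in WT and 1549, 1561 and 1517 in SKG (log2 fold change 1.49 ± 0.12, edgeR adjusted p = 4.3e-08). Ubash3a, a phosphatase family member that dampens TCR signals, had 2, 8 and 17 counts in WT and 75, 89 and 70 in SKG (3.14 ± 0.31). Both were higher in all 3 SKG libraries. Rnf128, a ubiquitin ligase linked to anergy, fell from 37, 25 and 34 to 6, 6 and 9 counts, and Ptpn6, which encodes the phosphatase SHP-1, from 807 ± 86.6 to 517 ± 87.5 CPM; the call of Ptpn6 was lost without SKG replicate 2 and without WT replicate 2.

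Of the genes used as readouts of TCR signal strength, several fell far and others did not pass the test. Pdcd1, which encodes the inhibitory receptor PD-1, had 5206, 4337 and 5223 counts in WT and 542, 441 and 451 in SKG. Its level was 10.4-fold lower, 79.5 ± 4.50 against 829 ± 163 CPM (log2 fold change -3.38 ± 0.24, edgeR adjusted p = 1.3e-07). Id3, the inhibitor of E proteins induced by TCR signals, had 1631, 1977 and 1175 counts in WT and 139, 96 and 90 in SKG (log2 fold change -3.94 ± 0.26, adjusted p = 4.3e-08). The 2 genotypes lay far apart for both. Spry2, a feedback inhibitor of Ras signalling, fell from 118, 94 and 322 counts to 11, 9 and 9 (-4.12 ± 0.43), and Nab2, a corepressor of Egr factors, from 1109, 538 and 674 to 370, 230 and 281 (-1.47 ± 0.34). Nab2 shares exon sequence on the opposite strand with Stat6. Egr1, Egr2 and Nr4a1 were not called, with log2 fold changes of -0.06 ± 0.54, -0.64 ± 0.36 and -0.35 ± 0.75. Egr1 ranged from 672 to 1910 counts within WT and from 478 to 1732 within SKG, so a change of moderate size was not detectable. Of 8 Egr, Nab and Nr4a genes tested, 1 was called lower and all 8 means lay below WT, with a median of -0.38. Of 18 immediate-early and heat-shock genes 0 were called in the main edgeR fit or by DESeq2, and 3 had an unadjusted p under 0.05. With a number in the sample titles as a replicate block in edgeR, 5 were called. Dusp6, a phosphatase of ERK, rose, with 35, 9 and 29 counts in WT and 190, 119 and 88 in SKG (2.39 ± 0.32).

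Of 14 inhibitory receptors tested, 5 fell (Pdcd1, Lag3, Cd5, Cd200 and Cd160) and 2 rose (Cd96 and Tigit), with a median of -0.13. Lag3, a CD4-like receptor for MHC class II, had 213, 93 and 255 counts in WT and 13, 13 and 24 in SKG, wholly apart and 10.9-fold lower (log2 fold change -3.44 ± 0.46, edgeR adjusted p = 3.46e-05). Cd200 was low in both, with 7, 19 and 36 counts in WT and 0, 2 and 1 in SKG, and its pooled level was 20.6 times higher in WT, with an exact 95% interval of 6.74 to 103 for counting error. Cd160 had 64, 205 and 363 counts in WT and 108, 92 and 58 in SKG, so the groups overlapped, and its call was lost under 8 of 15 alternatives. In place of 7 inhibitory receptors, 4 were called when the fit held only the 6 NKT17 libraries. Cd96, a receptor of the nectin family system, rose from 439 ± 49.2 to 768 ± 54.3 CPM (0.81 ± 0.11, adjusted p = 2.52e-05 in edgeR). Tigit, of the same system, had 0, 0 and 0 counts in WT and 7, 3 and 0 in SKG, a level near the 3-count floor, and no fold is given.

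Transcription factors of NKT17 identity and of immature T cells differed in direction. Sox13, a factor of IL-17-producing γδ T and NKT17 cells, had 1762, 1587 and 2457 counts in WT and 934, 487 and 716 in SKG (-1.44 ± 0.27, edgeR adjusted p = 0.00226). Blk, a Src family kinase found in IL-17-producing T cells, fell from 2002 ± 79.1 to 828 ± 146 CPM (-1.27 ± 0.22). Of the 8 NKT17 markers, 1 was called higher (Ccr6) and 4 lower (Il23r, Blk, Sox13 and Il1r1), and Maf and Il17re did not pass. Lef1, which with Tcf7 mediates Wnt-type programmes in immature T cells, had 444, 386 and 610 counts in WT and 58, 59 and 40 in SKG (-3.19 ± 0.22, adjusted p = 1.72e-08). Tcf7 was at 299 ± 33.6 and 327 ± 6.41 CPM, and Id2 at 1179.8 ± 286 and 1062 ± 201 CPM, and neither passed the test. Myb, needed by early thymocytes and NKT precursors, had 436, 137 and 333 counts in WT and 3, 12 and 13 in SKG (-5.00 ± 0.64). Tox, which acts in the development of thymic T cells, fell from 128 ± 25.3 to 64.0 ± 2.65 CPM. Zbtb16, which encodes PLZF, was at 162 ± 54.1 CPM in WT and 111 ± 11.5 CPM in SKG (-0.56 ± 0.19, adjusted p = 0.0818 in edgeR), under the fold-change minimum. Bhlhe40, which promotes effector cytokines, rose from 73, 93 and 311 to 402, 348 and 278 counts, and on the count scale WT replicate 3 lay above the lowest SKG library, while on the CPM scale the groups did not overlap. Of 31 lineage factors tested, 3 were called higher (Bhlhe40, Prdm1 and Klf2) and 5 lower (Myb, Tox, Hivep3, Sox13 and Tox2), with a median of -0.17. In place of these 8 genes, 5 were called without WT replicate 3.

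In the IL-17, IL-23 and IL-1 axis, 3 of 14 genes were called in each direction. Il23r had 2339, 2614 and 3286 counts in WT and 1667, 1440 and 1312 in SKG, a tight pair of groups at 454 ± 2.85 and 245 ± 7.69 CPM (log2 fold change -0.89 ± 0.15, edgeR adjusted p = 0.000314). Il17re had 994, 1176 and 1805 counts in WT and 1764, 1339 and 1339 in SKG, and the groups overlapped (0.18 ± 0.24, adjusted p = 0.735). Il17a, the signature cytokine, was uneven within WT, with 174, 35 and 607 counts, and had 74, 46 and 37 in SKG. These groups overlapped, and its call (adjusted p = 0.0939 in edgeR) was lost under 11 of 15 alternatives, with a highest adjusted p of 0.511. Il1r1, the IL-1 receptor, had 2462, 2446 and 3597 counts in WT and 1524, 1352 and 1310 in SKG (467 against 233 CPM, adjusted p = 0.0727 in edgeR), and Il17rb, a chain of the IL-25 receptor, went from 168 ± 17.8 to 398 ± 14.9 CPM (adjusted p = 0.0636). The calls of Il1r1 and Il17rb were lost whichever single library was left out, with highest adjusted p of 0.623 and 0.22. Il17ra, the shared IL-17 receptor chain, rose from 393, 475 and 692 to 893, 813 and 835 counts (0.74 ± 0.13), and Traf3ip2, the adaptor that binds it, from 196, 258 and 296 to 446, 377 and 379 (0.69 ± 0.15). With DESeq2, or without WT replicate 1, WT replicate 3 or any 1 SKG library, 3 genes of the axis were called in place of 6.

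Cytokine receptors and ligands outside this axis also moved. Tnfsf11, which encodes RANKL, by which thymic T cells act on medullary epithelium, had 542, 316 and 741 counts in WT and 43, 51 and 63 in SKG (-3.30 ± 0.28, edgeR adjusted p = 5.33e-08). Tnfsf4, which encodes OX40 ligand, fell from 27, 27 and 36 to 3, 10 and 4 counts. Cd40lg, which encodes CD40 ligand, rose from 673, 820 and 989 to 1324, 1283 and 1239 counts (0.65 ± 0.10). Of 17 costimulatory genes 4 were called higher (Tnfrsf18, Cd27, Cd40lg and Icosl) and 2 lower, and the call of Cd27, whose libraries overlapped, was lost under 10 of 15 alternatives. Cish, a target of STAT5 that restrains cytokine and TCR signals, had 183, 110 and 225 counts in WT and 748, 430 and 622 in SKG (1.80 ± 0.22, adjusted p = 8.22e-06 in edgeR). Of 22 JAK, STAT and SOCS genes, 3 were called higher (Cish, Pim1 and Pim2) and 1 lower. Ifngr1, the IFN-γ receptor chain that binds the ligand, fell from 3866, 3280 and 5347 to 2623, 1673 and 1861 counts (-1.02 ± 0.11).

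**Figure D3:**
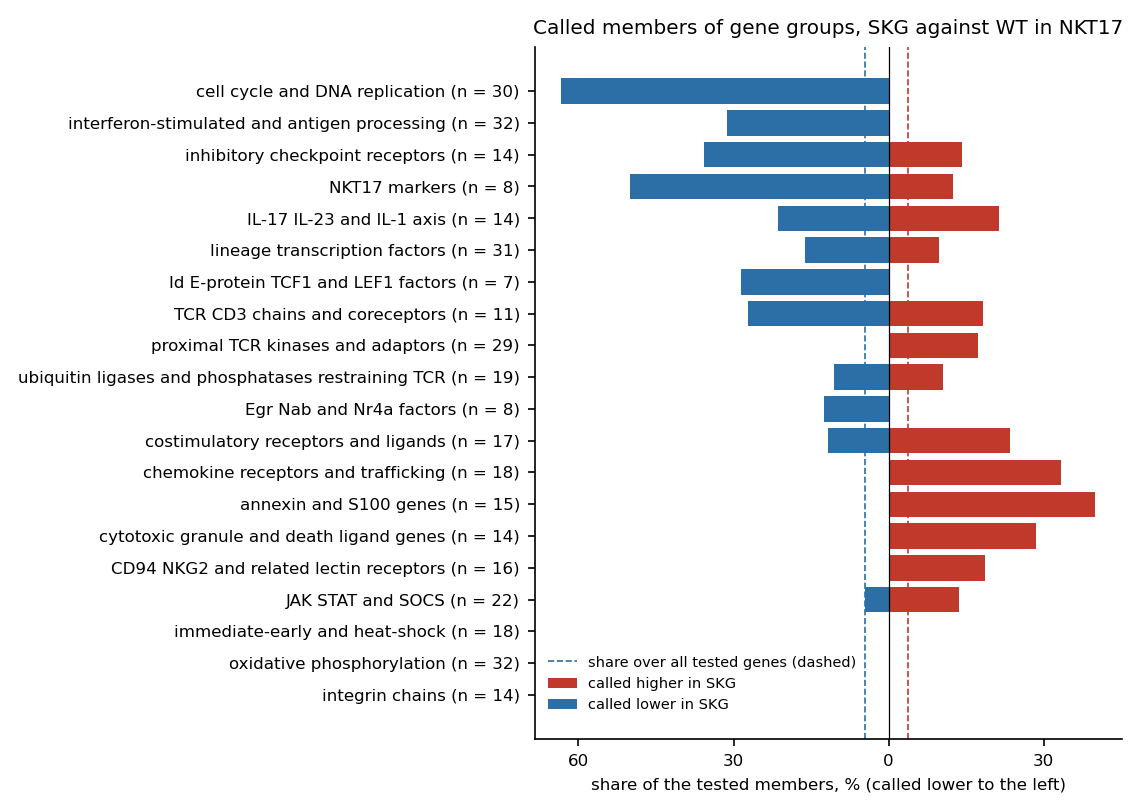
Share of the tested members of 20 gene groups called higher (red, to the right) or lower (blue, to the left) in SKG NKT17, in % (x axis), with dashed lines at 3.83% and 4.54%, the shares over all tested genes. Cell cycle genes stand at 63.3% called, all lower, and chemokine receptor and annexin genes at 33.3% and 40.0%, all higher.

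Of 30 genes of the cell cycle and DNA replication tested, 19 fell in SKG and 0 rose, and 29 means lay below WT, with a median log2 fold change of -0.99. The summed level of the 30 genes was 1517 to 1845 CPM in the WT libraries and 856 to 1070 CPM in the SKG libraries. Mki67, the proliferation marker Ki-67, had 82, 50 and 104 counts in WT and 24, 17 and 31 in SKG (-1.68 ± 0.34, edgeR adjusted p = 0.00195). Cdk1, the kinase that starts mitosis, had 154, 116 and 148 counts in WT and 81, 44 and 24 in SKG (-1.55 ± 0.32, adjusted p = 0.00286). Neither gene overlapped between genotypes. Mcm3 and Mcm6, subunits of the replicative helicase, had log2 fold changes of -1.02 ± 0.14 and -0.78 ± 0.15, and Rrm1, which makes deoxynucleotides, -0.89 ± 0.14. E2f1, the factor that switches on many of these genes, was the member whose mean lay above WT (0.17 ± 0.44) and did not pass. In NKT1 the same 30 genes had 2 called lower and a median of -0.22, and in NKT2 9 called lower and a median of -0.61. The shares of all genes called in NKT1 and NKT2 are not given here. A called difference of the SKG effects was found for 7 of the 30 against NKT1 and 0 against NKT2. Over all genes, 4.17% and 2.19% had such a difference. No gene of this list was thus called to fall further in NKT17 than in NKT2. Leaving out 1 library at a time gave 14 to 21 called genes in NKT17. The share of cells in cycle and the level per cell cannot be told apart.

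The promoters of Cdk1 and Mki67 are shown because these genes fell together and because the windows hold the cell cycle homology region, TTTGAA on either strand, which is known from genes of G2 and mitosis. The windows run from 250 bases before to 50 after the RefSeq start on GRCm38.p6, both on the minus strand, at chr10:69352863-69353162 for Cdk1 and chr7:135716330-135716629 for Mki67. Capitals mark the matches, which start at positions -71 and -15 in Cdk1 and -116 and -98 in Mki67.
Cdk1: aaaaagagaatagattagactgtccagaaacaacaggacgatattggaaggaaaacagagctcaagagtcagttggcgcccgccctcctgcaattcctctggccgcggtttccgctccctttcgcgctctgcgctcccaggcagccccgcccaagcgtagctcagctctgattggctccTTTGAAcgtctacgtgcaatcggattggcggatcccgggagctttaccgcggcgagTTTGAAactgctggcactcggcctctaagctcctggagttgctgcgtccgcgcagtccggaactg
Mki67: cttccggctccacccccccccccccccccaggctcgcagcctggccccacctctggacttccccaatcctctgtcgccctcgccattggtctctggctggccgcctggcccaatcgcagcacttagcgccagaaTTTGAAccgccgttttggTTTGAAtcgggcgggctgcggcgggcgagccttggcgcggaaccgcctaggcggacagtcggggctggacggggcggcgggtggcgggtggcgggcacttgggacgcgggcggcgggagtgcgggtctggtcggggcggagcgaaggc
Of the 26 cell cycle genes with a window, 9 held these letters (34.6%), as did 14.1% of 8056 tested genes with a window and 20.2% of all promoters. Of the 18 members with a window that were called lower, 7 held them, so most of the genes that fell did not.

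**Figure D4:**
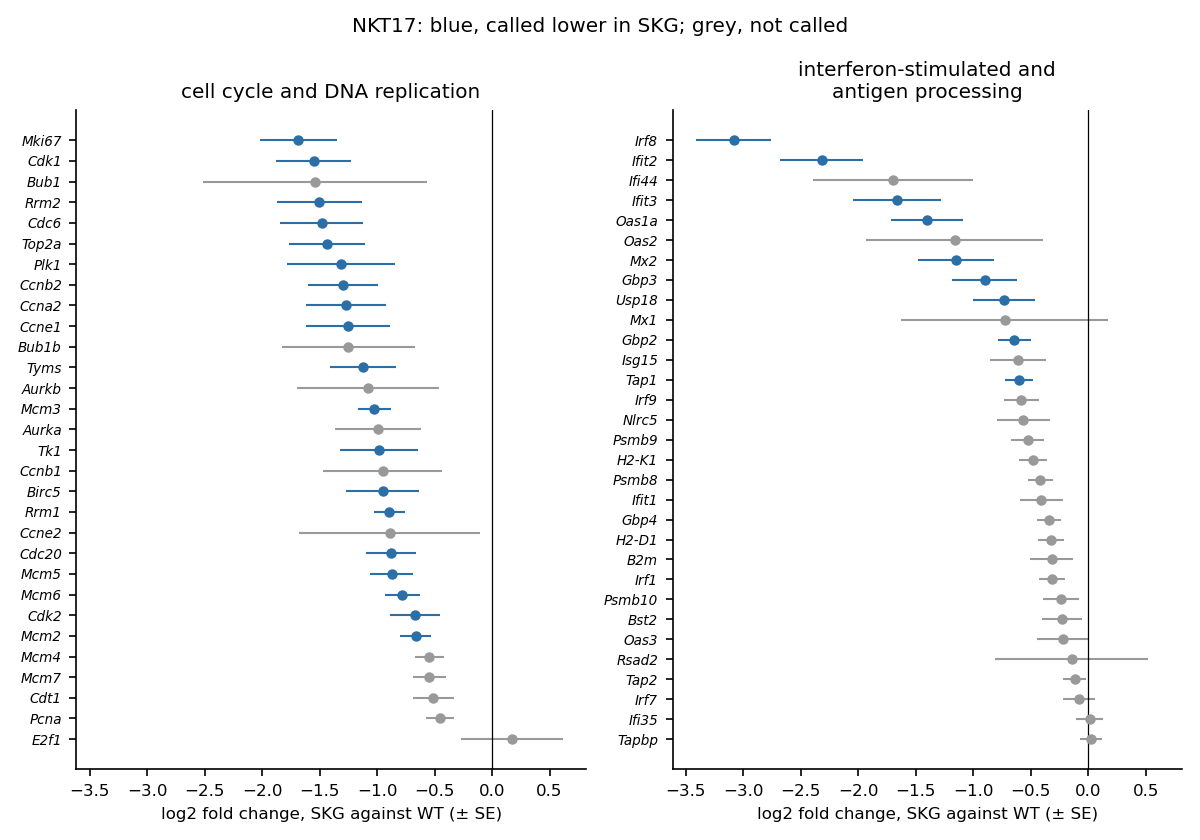
Log2 fold change of SKG against WT in NKT17 with its SE (x axis) for tested genes of cell cycle and DNA replication (30 genes, left) and of interferon-stimulated and antigen processing genes (31 of 32 genes, right). Blue points were called lower, grey points were not called, and 29 of 30 and 29 of 31 points lie below 0.

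Of 32 interferon-stimulated and antigen processing genes tested, 10 fell and 0 rose, and 30 means lay below WT, with a median of -0.55. Irf8, a transcription factor induced by interferon and by TCR signals, had 138, 117 and 223 counts in WT and 19, 22 and 14 in SKG (-3.09 ± 0.33, edgeR adjusted p = 1.2e-06). Ifit2, an interferon-induced RNA-binding protein, had 100, 77 and 85 counts in WT and 14, 30 and 9 in SKG (-2.32 ± 0.36). Both were lower in all 3 SKG libraries. Oas1a, a sensor of double-stranded RNA, fell from 32.2 ± 12.6 to 12.0 ± 2.98 CPM. Gbp2, a guanylate-binding protein, had 788, 913 and 752 counts in WT and 626, 519 and 461 in SKG (-0.64 ± 0.14), and its call was lost without WT replicate 1 and without WT replicate 2, when the fold change was under 1.5. Without WT replicate 2 the group had 5 called genes, and without WT replicate 3 it had 14, so the number rests on which WT libraries are used. Irf7 and Isg15, other members, were not called. In NKT1 11 of the same 32 genes were called lower, and in NKT2 2. Against NKT1 the difference of the SKG effects was called above 0 for 1 gene and below 0 for 2. Against NKT2 it was called above 0 for 0 genes and below 0 for 3.

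The windows of Oas1a and Gbp2 are shown for the interferon-stimulated response element, searched on both strands as GAAA, any 2 bases and GAAA. They are chr5:120907476-120907775 on the minus strand for Oas1a and chr3:142620413-142620712 on the plus strand for Gbp2 (GRCm38.p6, RefSeq). Capitals mark the matches, of which the pair in Oas1a overlap and start at positions -20 and -14, and that in Gbp2 starts at -59 and is read from the opposite strand.
Oas1a: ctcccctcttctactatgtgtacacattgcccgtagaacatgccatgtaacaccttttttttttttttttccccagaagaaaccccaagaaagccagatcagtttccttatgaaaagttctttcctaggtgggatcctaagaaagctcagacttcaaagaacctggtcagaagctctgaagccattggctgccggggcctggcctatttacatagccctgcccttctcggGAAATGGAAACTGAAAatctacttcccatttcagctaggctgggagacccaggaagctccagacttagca
Gbp2: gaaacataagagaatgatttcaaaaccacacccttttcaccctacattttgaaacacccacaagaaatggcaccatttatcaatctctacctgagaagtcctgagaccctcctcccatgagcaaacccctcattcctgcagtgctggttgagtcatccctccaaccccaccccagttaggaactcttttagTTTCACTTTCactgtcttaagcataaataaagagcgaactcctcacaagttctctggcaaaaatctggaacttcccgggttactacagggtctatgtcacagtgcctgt
Of 25 members of the group with a window, 10 held the element (40.0%), against 3.76% of tested genes with a window and 3.99% of all promoters. Isg15, Ifit1, Oas3 and B2m, which were not called, were among the 10.

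Of 15 annexin, S100 and related genes tested, 6 rose (Anxa1, Anxa2, Anxa4, S100a4, S100a6 and Lgals1, the last a galectin) and 0 fell, with a median of 0.84. Anxa1, a calcium-dependent membrane-binding protein with anti-inflammatory roles, had 14, 23 and 16 counts in WT and 158, 158 and 95 in SKG (2.93 ± 0.26, edgeR adjusted p = 8.54e-08). S100a4, a calcium-binding protein of motile and effector cells, had 2083, 2304 and 2458 counts in WT and 12226, 4977 and 8329 in SKG (1.86 ± 0.42, adjusted p = 0.0157). S100a6 rose from 381 ± 47.2 to 966 ± 229.7 CPM. For both S100 genes SKG replicate 1 was the highest and SKG replicate 2 the lowest SKG library. The number called was 6 to 7 without any 1 library.

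Some genes of cytotoxic cells rose from low levels. Of 14 tested, 4 were called higher (Fasl, Prf1, Nkg7 and Fas) and 0 lower, with a median of 0.67, while the summed level of the 15 listed genes was 1544 to 1923 CPM in WT and 1648 to 1913 CPM in SKG, so the sum did not separate the genotypes. Fasl, the death ligand, had 11, 15 and 17 counts in WT and 83, 57 and 55 in SKG (2.17 ± 0.26, edgeR adjusted p = 7.98e-06). Prf1, which encodes perforin, had 8, 24 and 62 counts in WT and 254, 123 and 129 in SKG (2.45 ± 0.36). Nkg7, a granule protein of NK and cytotoxic T cells, had 19, 8 and 17 counts in WT and 290, 76 and 113 in SKG. SKG replicate 1 was the highest library for Prf1, Nkg7, Klrk1 and Cd8b1. Without it the log2 fold change of Nkg7 was 2.81 with an adjusted p of 0.0652 in edgeR, and that of Klrk1, which encodes the activating receptor NKG2D (15, 18 and 6 counts in WT against 195, 70 and 71 in SKG), was 2.54. Klrd1, which encodes CD94, had 0, 1 and 3 counts in WT and 23, 13 and 7 in SKG, a pooled ratio of 10.8 with an exact 95% interval of 3.92 to 41.3 for counting error, and its call was lost under 5 alternatives, with an adjusted p of 0.203 in edgeR without SKG replicate 1. The call of Cd8b1 was also lost without that library, with an adjusted p of 0.417. Tbx21, the NKT1 factor, had 1, 6 and 9 counts in WT and 21, 0 and 6 in SKG and Ifng 1, 1 and 0 against 0, 0 and 1, so these defining markers of NKT1 cells were near 0. Cxcr3, another listed NKT1 marker, had 3, 22 and 9 counts in WT and 68, 20 and 24 in SKG. It was not called (edgeR adjusted p = 0.131). SKG replicate 1 was the highest library for Tbx21, Cxcr3 and Klrd1 too. Of 6 Ly49 receptors tested 0 were called by edgeR or DESeq2 and 0 had an unadjusted p under 0.05, and the sum of the 11 listed genes was at most 2.61 CPM in any of the 6 libraries, against 1845 to 2427 CPM in WT NKT1.

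Among the 12 falls of largest fold, of genes with few counts in SKG, were Kcna1, Gfra4, Adam33, Glyat, Nrgn, Enox1, Myb, Lyn, Prg4, Fblim1 and Folr4. Kcna1, a voltage-gated potassium channel, had 160, 40 and 131 counts in WT and 0 in each SKG library, so it was at least 37.7-fold lower against a floor of 3 counts a library. Its call (edgeR adjusted p = 0.000313) was lost with DESeq2, at an adjusted p of 0.201. Gfra4, a receptor of the GDNF family, had 732, 371 and 391 counts in WT and 0, 4 and 1 in SKG, and Adam33, a metalloprotease, had 247, 164 and 435 against 0, 3 and 0. The ratio of pooled levels of Adam33 was 281 (exact 95% interval 96.0 to 1367, counting error only). Gfra4 and Adam33 are neighbours on chromosome 2 (130865368 to 130868824 and 130876327 to 130889550, both on the minus strand, NCBIM37). Lyn, a Src family kinase best known in B and myeloid cells, had 46, 42 and 94 counts in WT and 0, 6 and 0 in SKG. Folr4, a folate receptor relative also found on regulatory T cells and on eggs, had 90, 480 and 409 counts in WT and 36, 7 and 5 in SKG. All 12 had non-overlapping libraries, which the choice of these genes required.

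Of 32 oxidative phosphorylation genes 0 were called by edgeR or DESeq2, 6 had an unadjusted p under 0.05, and the median was 0.07. Of 14 integrin chains 0 were called by edgeR and 1 by DESeq2, and 7 had an unadjusted p under 0.05. Of 9 iron-handling genes 2 were called lower. Tfrc, the transferrin receptor, fell from 215, 143 and 335 to 92, 96 and 96 counts (-1.24 ± 0.25), and Slc11a2, an iron transporter, from 298 ± 16.6 to 156 ± 11.4 CPM (-0.94 ± 0.12).

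The SKG effect in NKT17 was set beside the effects in NKT1 and NKT2 by testing the difference of the effects for each gene. The difference between NKT17 and NKT1 was called for 464 genes (4.17%), and that between NKT17 and NKT2 for 244 (2.19%), with the same thresholds. The effects compared use the same NKT17 libraries, so the pair of differences is not independent. Of the 931 genes called in NKT17, 287 had a called difference from NKT1, 127 from NKT2, and 75 from both. The 931 genes were chosen by their change in the same NKT17 libraries, which favours called differences. These counts are therefore not read against the shares over all genes. Pdcd1 fell in all 3 subsets, with log2 fold changes of -3.38, -2.88 and -2.66 in NKT17, NKT1 and NKT2, and its differences were -0.51 (adjusted p = 0.543 in edgeR) and -0.72 (adjusted p = 0.409).

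Some genes moved in opposite directions in NKT17 and NKT1. Pim2, a survival kinase, rose in NKT17 (229 to 366 CPM, log2 fold change 0.68 ± 0.13) and fell in NKT1 (452 to 169 CPM, -1.42 ± 0.13), a difference of 2.10 ± 0.18 (SE, edgeR adjusted p = 7.71e-07). Furin, a protease that matures TGF-β and other proproteins, rose in NKT17 (0.92) and fell in NKT1 (-2.13). Neurl3, a ubiquitin ligase, rose from 0.860 to 13.1 CPM in NKT17 and fell from 174 to 87.6 CPM in NKT1. Il4, the type 2 cytokine, went the other way, falling in NKT17 from 112, 180 and 175 to 103, 64 and 59 counts (-1.06 ± 0.32) and rising in NKT1 (1.65 ± 0.32), a difference of -2.71 ± 0.45 (adjusted p = 0.00222 in edgeR). The call of Il4 in NKT17 was lost without SKG replicate 2, SKG replicate 3 or WT replicate 2, with a highest adjusted p of 0.161. Il13, with 1, 6 and 6 counts in WT and 0 in each SKG library of NKT17, was at least 1.38-fold lower there, and had a mean of 0.0590 CPM in WT and 0.810 CPM in SKG NKT1.

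Other genes moved further in NKT17 than in NKT1. Lef1 fell by 3.19 in NKT17 and had a log2 fold change of -0.20 ± 0.19 in NKT1, a difference of -2.98 ± 0.30 (edgeR adjusted p = 5.74e-06). Gng2, a G-protein gamma subunit, rose from 9.04 to 63.8 CPM in NKT17 and was at 97.4 and 96.4 CPM in NKT1. Ccr8, Dgka, Cd247 and Tnfsf11 had log2 fold changes of -0.03, 0.09, -0.06 and 0.17 in NKT1, and each difference was called. The differences of Id3 (-1.95), Irf8 (-1.89) and Mki67 (-2.43) were called too, with Id3 and Irf8 lower in SKG in both subsets. On the log2 scale Themis rose further in NKT1 (0.118 to 19.3 CPM) than in NKT17 (4.88 to 39.4 CPM). That larger fold rests on a WT NKT1 level near 0 (0.118 ± 0.205 CPM, SD, n = 3). The difference was between -6.78 and -3.53 over the alternatives.

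Between NKT17 and NKT2, the smallest adjusted p was that of Ttc39c, a gene of little-known function, which rose in NKT17 (7.44 to 34.3 CPM) and fell in NKT2 (84.8 to 16.8 CPM), a difference of 4.55 ± 0.27 (SE, edgeR adjusted p = 6.74e-10). Klrk1 and Ccr10 also rose in NKT17 and fell in NKT2. The other 5 genes of smallest adjusted p rose further in NKT2. Dtx1, a regulator of Notch signalling and anergy, was at 47.2 and 49.3 CPM in WT and SKG NKT17 but rose from 0.361 to 23.3 CPM in NKT2. Tnfrsf25, the death receptor DR3, F2r, a thrombin receptor, and Rarg, a retinoic acid receptor, had log2 fold changes of 0.28, 0.11 and 0.24 in NKT17 and 2.87, 1.35 and 1.65 in NKT2. For these genes WT NKT17 cells already stood above WT NKT2 cells, at 215, 1066 and 263 against 7.44, 147 and 62.2 CPM. Qpct, a glutaminyl cyclase, rose in both, by 1.56 in NKT17 and 3.82 in NKT2. Sox13 fell less in NKT17 (-1.44) than in NKT2 (-4.64), while Irf8 and Lef1 fell further in NKT17, with differences of -2.58 and -2.09.

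**Figure D5:**
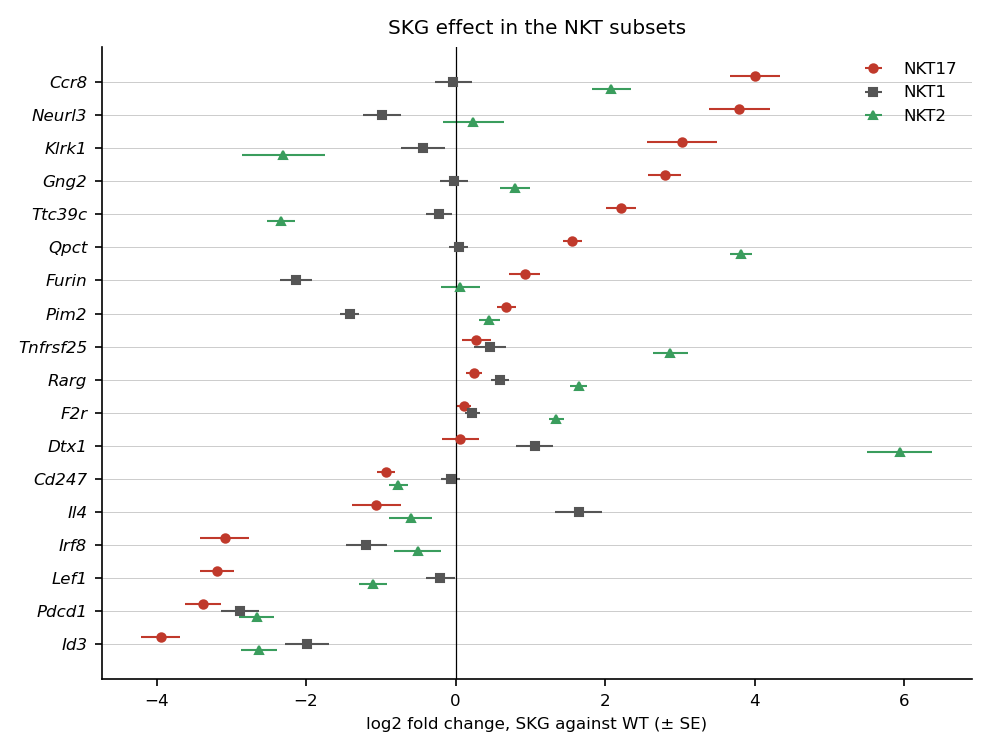
Log2 fold change of SKG against WT with its SE (x axis) in NKT17 (red circles), NKT1 (grey squares) and NKT2 (green triangles) for 18 genes, each point from 3 against 3 libraries. Pim2, Furin and Neurl3 lie right of 0 in NKT17 and left of 0 in NKT1, and the 3 points of Pdcd1 lie close together below 0.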

How the data were processed

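RNA-seq of 3 thymic iNKT subsets, each sorted from both genotypes, was analysed, with 3 libraries in each of 6 groups named by the labels. The authors made the deposited values, whole-number read counts per gene symbol, from short single-end reads of full-length poly-A cDNA cut with Tn5. Per their methods, reads of rRNA, tRNA, adapters and spike-ins were removed, the rest aligned with TopHat 1.4.1, low-complexity reads dropped and genes counted with htseq-count in union mode. The submitters' processing notes name TopHat 1.4.1, Bowtie 1.0.0 and HTSeq 0.7.1, and builds that differ from the mm9 of the methods, so gene coordinates (GENCODE M1 on NCBIM37, equal to mm9, matched by symbol for 154 of 156 genes) are the annotation's and not the counts'. Annotation and strand setting are not given in the sources used here, and 34 of the 156 genes share exon sequence with another gene, 32 on the opposite strand. The deposited table holds 23337 genes and 2 further columns, of no listed sample and not used, and 15582 genes have a count in the 18 libraries.

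From the counts, edgeR 4.0.16 kept 11118 genes (filterByExpr by group), scaled by TMM (factors 0.928 to 1.07) and fitted a robust quasi-likelihood model with 1 mean for each of 6 groups (residual df 12, common BCV 21.1%). Tests were two-sided, with adjusted p under 0.1 over all tested genes and a fold change of at least 1.5. Each standard error was derived from the F statistic, as the size of the log2 change over the root of F. The pipeline was tested on simulated data. Without molecular identifiers, PCR copies count as reads, and intervals and floors cover counting error only. Alternatives were DESeq2 1.42.0, other scalings, filters and thresholds, a fit restricted to the compared libraries, blocks by a number in the titles, and each library left out.

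Named genes are the 12 largest rises and 12 largest falls among called genes with non-overlapping libraries and 50 or more counts on average in whichever genotype was higher, Zap70, Il23r and Il17re, up to 6 called genes of smallest adjusted p in each list with members needed to describe it, and for each difference the 6 of smallest adjusted p. Further genes (such as Cd3e, Lck, Egr1, Tcf7 and Cxcr6) were chosen after their values were seen. A few genes are not reported here. The comparison, gene lists and motifs were chosen with earlier results of these data known. Promoters are RefSeq windows on GRCm38.p6, matched by symbol.

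Libraries of a genotype differed by 5.77 to 17.8 times the chi-square expected from sampling and were kept as replicates.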

Additional observations from a re-analysis of the deposited data

Results flagged for a closer look

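For the genes below, the test of the difference between 2 subsets in the SKG effect was called by edgeR (adjusted p under 0.1 and at least 1.5-fold). Each value is the log2 SKG effect in NKT17 minus that in the other subset. Against NKT1 the differences above 0 were those of Neurl3 (4.78), Ccr8 (4.04), Klrk1 (3.46), Furin (3.06), Gng2 (2.82), Ttc39c (2.44), Pim2 (2.10) and Dgka (1.397). Those below 0 were Il13 (-8.56), Themis (-4.23), Tnfsf11 (-3.48), Lef1 (-2.98), Il4 (-2.71), Mki67 (-2.43), Id3 (-1.95), Irf8 (-1.89) and Cd247 (-0.87). The value of Il13 rests on groups with few or no counts and depends on the prior count. That of Themis rests on a WT NKT1 mean of 0.118 CPM. Against NKT2 the differences above 0 were those of Klrk1 (5.34), Ttc39c (4.55), Ccr10 (4.05), Sox13 (3.20) and Ccr8 (1.92). Those below 0 were Dtx1 (-5.88), Tnfrsf25 (-2.59), Irf8 (-2.58), Qpct (-2.25), Lef1 (-2.09), Rarg (-1.40), F2r (-1.24) and Cd96 (-1.16). A positive value does not by itself show a rise in NKT17: Sox13 fell in both subsets, and less in NKT17.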

How the results depend on the processing

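The number of genes called between SKG and WT in NKT17 was 931, and 1398 with no fold-change minimum. With an adjusted p under 0.05 the called differences were 278 against NKT1 and 155 against NKT2, in place of 464 and 244. Leaving out 1 library at a time gave 652 to 918 called genes in NKT17, 296 to 537 differences against NKT1 and 157 to 256 against NKT2. DESeq2, other scalings and other filters kept these counts within 1.5 times. Of 156 genes given, 117 had the same call under every alternative, 34 lost it under at least 1, 5 gained one and 0 reversed. Lost most often were Il17a, Il1r1, Ccr7, Cd27, Il17rb, Klf2, Cd160 and Cd8b1, and the cause was not tested. Numbers in the titles were shared by 2 pairs of WT and SKG NKT17 libraries, whose deviations from the group means correlated at 0.090 and 0.0074, which does not show pairing. With that number as a replicate block 913 genes were called, 735 of them among the 931, and 523 and 277 differences. The numbers were also shared by the 3 subsets of a genotype. Same-numbered libraries correlated at -0.0072 to 0.198 between NKT17 and NKT1 and at 0.092 to 0.351 between NKT17 and NKT2, with 4 of 6 over 0.1 in each, and 5 and 6 of 6 NKT17 libraries correlated best with their own number. With genotype and number together as a replicate block, an alternative chosen after seeing the data, 537 and 301 differences were called (436 and 230 of them among the 464 and 244), and the differences given by gene kept their calls. Depth limits genes of few counts, such as Tigit, Cd200, Klrd1 and Il13.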
